A study of Mus musculus with 4 samples.

Results

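The genes of the major histocompatibility complex (MHC) and of antigen processing were followed in primary fibroblasts grown from mouse embryos. The members were every gene symbol beginning with H2-, the mouse prefix for the MHC, and 14 further symbols of the peptide pathway and its regulators. They numbered 56 of the 23235 symbols measured, and 42 carried the H2- prefix. By name, 2 encode classical class I heavy chains, 28 non-classical class I molecules or their pseudogenes and 10 class II chains. A further 11 process and load peptides, 2 are regulators of MHC transcription, and 1 (Cd74) is the class II invariant chain. The remaining 2, H2-Ke2 and H2-Ke6, lie in the region but encode no MHC protein.

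RNA was sequenced from 4 cultures of the C57BL/6 strain, 1 library per genotype, labelled wild type (WT), Gadd45-/- (KO), G3 Terc-/- (G3) and G3 Gadd45-/-Terc-/- (G3KO). By convention, G3 stands for the third generation bred without Terc, the RNA template of telomerase, and the series' design text gives the other gene as Gadd45a, a stress-induced gene. The libraries labelled G3 and G3KO thus share the Terc deficiency, and those labelled KO and G3KO share the Gadd45 deficiency. The labels do not say how many embryos each culture came from. Values are FPKM, fragments scaled to transcript length and to all mapped fragments of the library, so levels can be compared between genes. Differences are on the log2(FPKM + 1) scale, and the size rule called a gene higher from 1 upwards and lower from -1 downwards, that is, where FPKM + 1 differed 2-fold. With 1 library per genotype no difference has a replicate check, and no error or test can be given. In these bulk samples, fewer cells of a type and less RNA per cell cannot be told apart.

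The Gadd45a transcript stood at 22.9 FPKM in WT, 33.9 in the library labelled KO, 31.4 in G3 and 45.1 in the library labelled G3KO, so it was not lower where the labels say Gadd45-deficient. Terc was listed at 0.530, 0.259, 0 and 0 FPKM in the same order, a few fragments at most. The library labelled KO had 16.4 FPKM of the Y-linked Ddx3y and 0.154 FPKM of Xist, which reached 24.0 to 34.1 FPKM elsewhere, so sex and genotype cannot be told apart in comparisons with it. Estimated depth was 19200000 to 19900000 fragments. All 10 fibroblast markers were above 1 FPKM in every library, and their summed level was 11612, 12238, 7312 and 11595 FPKM. The sum was lowest in G3, but the markers were split, with 2 lower (Col1a1 and Pdgfrb) and 2 higher in G3 than in WT by the size rule. The higher ones were Dcn (25.6 and 584 FPKM in WT and G3) and Lum (4.87 and 42.6 FPKM). Of 10 leukocyte and macrophage markers, the summed level was 5.80, 6.41, 6.07 and 20.9 FPKM, and Ptprc, the pan-leukocyte CD45 gene, stood at 0.0795 FPKM or less.

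Class I molecules display peptides from inside the cell on its surface and are made by nearly all nucleated cells. Peptides are cut by the proteasome, which can exchange its catalytic subunits for interferon-inducible ones, pumped into the endoplasmic reticulum by the TAP transporter, trimmed, and loaded onto a heavy chain paired with beta-2-microglobulin. Class II molecules display peptides from endosomes and are made mainly by professional antigen-presenting cells under the control of CIITA. NLRC5 is the related activator of class I genes, and interferons and NF-kB are known inducers of class I transcription.

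Promoter sequences are shown first. The class I genes shown were those with a match to the NF-kB type motif given below, and they carry a closely similar block upstream of their starts. They were also the class I genes that differed most between G3 and WT. RefSeq promoter windows of the build GRCm38.p6, from 250 bases before to 50 bases after a start, were found for 40 of the 56 members, with 44 windows in all. None was found for H2-Q8, H2-Q9, H2-T9 and H2-T10, which were also higher in G3. The stretches below run from the NF-kB type match to a Y box and are read in the direction of transcription. Capitals mark matches to 4 motifs searched on both strands. These were the interferon response element core GAANNGAAA, the NF-kB type motif (GGG, any 2 bases, TT, any base, CC), the Y box ATTGG and the CRE type motif TGACG. The H2-K1 stretch lies at chr17:34000354-34000463 on the minus strand. On the plus strand, H2-D1 lies at chr17:35262918-35263027, H2-Q4 at chr17:35379438-35379547, H2-Q6 at chr17:35424672-35424780, H2-Q7 at chr17:35439017-35439124 and B2m at chr2:122147556-122147643.
H2-K1: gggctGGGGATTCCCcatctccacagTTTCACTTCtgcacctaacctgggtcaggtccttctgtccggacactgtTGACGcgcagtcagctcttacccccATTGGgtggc
H2-D1: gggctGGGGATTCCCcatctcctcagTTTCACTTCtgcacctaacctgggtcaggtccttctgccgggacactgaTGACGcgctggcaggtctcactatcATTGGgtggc
H2-Q4: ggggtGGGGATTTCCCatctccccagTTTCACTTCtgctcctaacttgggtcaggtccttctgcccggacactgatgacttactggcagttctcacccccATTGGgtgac
H2-Q6: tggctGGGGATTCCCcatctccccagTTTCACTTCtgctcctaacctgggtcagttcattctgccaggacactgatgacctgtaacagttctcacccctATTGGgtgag
H2-Q7: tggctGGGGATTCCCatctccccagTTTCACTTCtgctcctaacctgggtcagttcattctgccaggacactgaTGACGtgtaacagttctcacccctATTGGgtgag
B2m: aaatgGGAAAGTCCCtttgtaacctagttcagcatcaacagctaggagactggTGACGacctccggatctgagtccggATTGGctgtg

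In the class I stretches the NF-kB type match is followed by the interferon response element core on the opposite strand, then by the Y box. H2-D1 and H2-K1 were identical at 90% of aligned positions and H2-Q6 and H2-Q7 at 98.2%, and the lowest identity among these 5 class I stretches was 83%. The interferon response element core was found in 7.52% of the 32851 RefSeq promoter windows and the NF-kB type motif in 4.79%. The Y box was found in 37.4% of windows and the CRE type motif in 20.8%. Among members, 10 of 44 windows held the interferon response element core and 9 held the NF-kB type motif. None of the 6 windows of the H2-M10 family, pheromone-receptor-associated class I genes of the vomeronasal organ, held either. Among class I genes that were not higher in G3, H2-M2 and H2-Q10 did hold the interferon response element core. The class II genes H2-Aa and H2-Oa, not higher in G3 by the size rule, held the NF-kB type motif. H2-T22 and H2-T23, described below among the higher genes, also had no match to either in this window. A match is a description of letters and not a measured site.

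The G3 library stood apart from the others for class I expression. Relative to WT, 22 of 56 members (39.3%) were higher by the size rule and none was lower, where 5.70% of all 22498 symbols compared were higher and 3.32% lower. Both classical class I genes, 10 of 28 non-classical genes, 3 of 10 class II genes, 6 of 11 processing and loading genes and Nlrc5 were among the 22. Between the G3 libraries, 20 of 56 members were lower in the one labelled G3KO and none was higher, beside 2.79% and 0.853% of all symbols. These 20 were all among the 22, but both comparisons use the G3 library. The same 20 members stood at least 1 above each of the other 3 libraries in G3, as did 2.33% of all symbols.

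**Figure D1:**
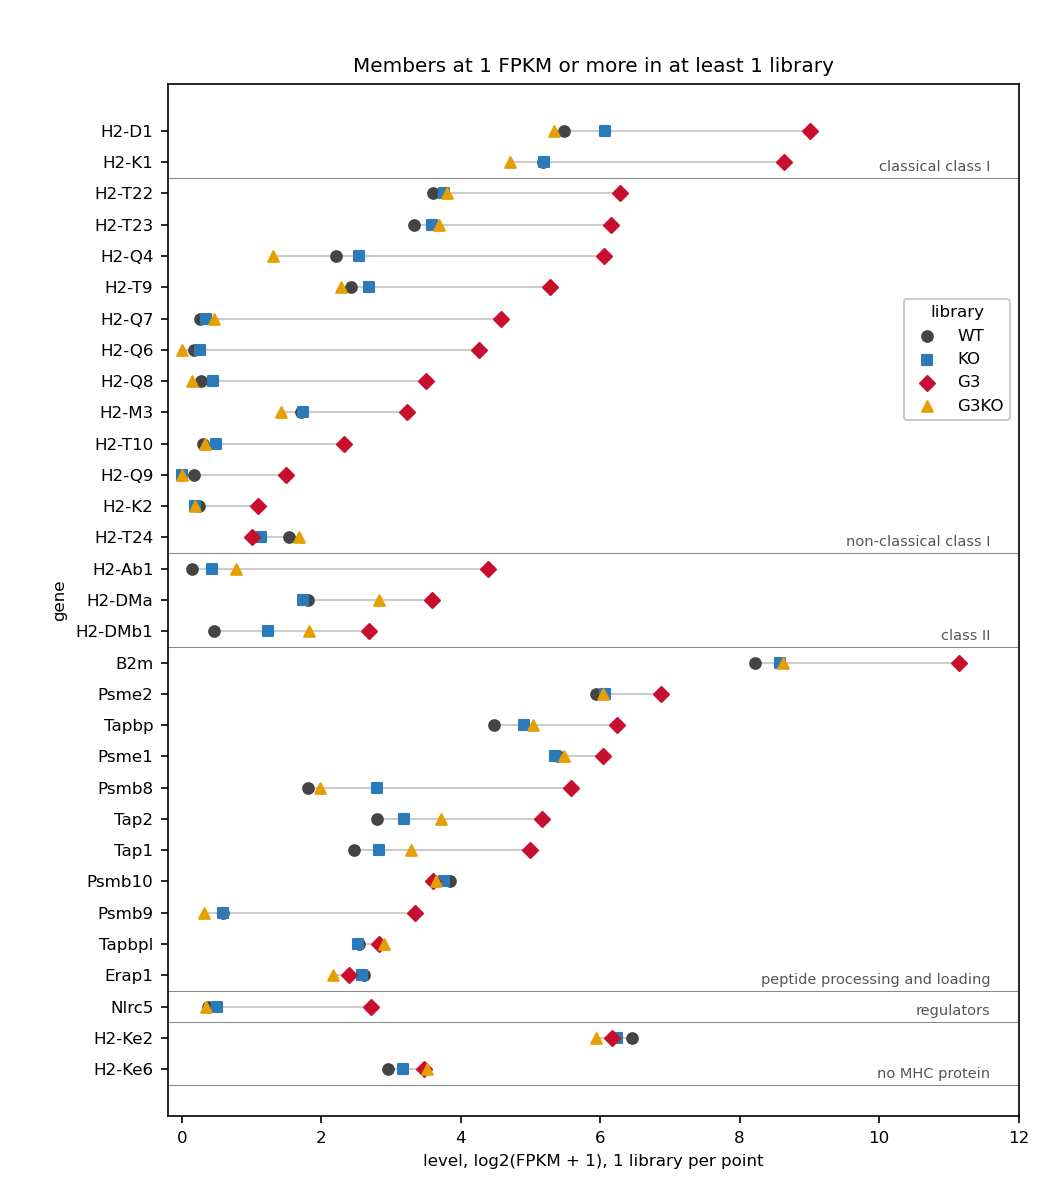
Levels of the 31 members at 1 FPKM or more in at least 1 library, on the log2(FPKM + 1) scale, with 1 point per library and genes grouped by class and ordered by level in G3. The red G3 points of 20 genes, from H2-D1 to Nlrc5, lie at least 1 unit to the right of all other points, whereas Erap1, Psmb10, Tapbpl and the pair H2-Ke2 and H2-Ke6 show their 4 points close together.

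H2-K1, a classical heavy chain that presents peptides to CD8 T cells, stood at 35.3 FPKM in WT, 35.7 in the library labelled KO, 399 in G3 and 25.1 in the library labelled G3KO. The G3 library alone was high, 11.3-fold above WT and 15.9-fold above the library labelled G3KO. H2-D1, the other classical heavy chain, measured 43.7, 65.9, 512 and 39.6 FPKM across these libraries. It was 11.73-fold higher in G3 than in WT and 12.9-fold higher than in the library labelled G3KO. By level, H2-D1 ranked at position 1907 of 22498 symbols in WT and at position 159 in G3, and H2-K1 at positions 2352 and 201. Fibroblast markers also differed in this library, Col1a1 and Pdgfrb downwards and Dcn and Lum upwards, and their part in the class I values was not tested.

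Class I copies are alike, so fragments may be divided unevenly between them. In the GENCODE release M21 transcripts, 14.3% of all 50-base words of H2-D1 and 8.11% of those of H2-K1 occur unchanged in another gene. The share was 32% for H2-Q6, 28.4% for H2-Q7, 22% for H2-Q4, 35.8% for H2-T22 and 31.6% for H2-T10, and 0.576% for H2-M3. Values of the Q and T genes are therefore uncertain one by one. A sum over copies depends less on how fragments were divided. H2-K1 and H2-D1 together gave 78.9, 102, 911 and 64.7 FPKM. All 30 class I symbols gave 113 FPKM in WT, 141 in the library labelled KO, 1229.8 in G3 and 101 in the library labelled G3KO. The sum was thus 10.8-fold higher in G3 than in WT, and 12.2-fold higher than in the library labelled G3KO. The classical pair made up 69.6% of the class I sum in WT, 72.3% in the library labelled KO, 74% in G3 and 64% in the library labelled G3KO, so its share differed far less than the sum.

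**Figure D2:**
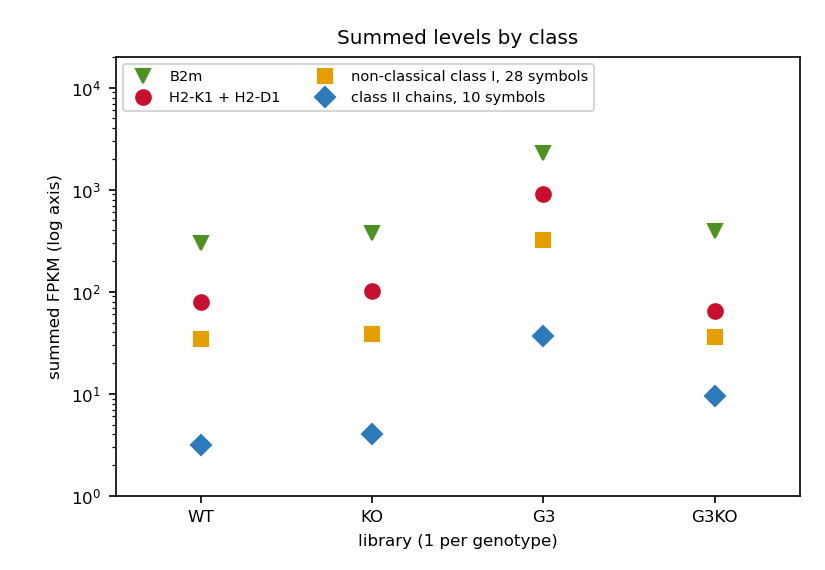
Summed FPKM on a log axis for each of the 4 libraries, 1 point per library, for B2m, the classical pair, the 28 non-classical symbols and the 10 class II symbols. All 4 series are highest in G3, where the classical pair reaches 911 FPKM against 64.7 to 102 elsewhere.

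Several non-classical Q genes were far higher in G3 than elsewhere. H2-Q4 stood at 3.61 FPKM in WT, 4.79 in the library labelled KO, 65.4 in G3 and 1.48 in the library labelled G3KO. It was 18.1-fold higher in G3 than in WT and 44.1-fold higher than in the library labelled G3KO. H2-Q6 to H2-Q9 include the genes of Qa-2, a class I molecule held in the membrane by a lipid anchor. H2-Q7 stood at 0.201, 0.269, 22.9 and 0.377 FPKM, H2-Q6 at 0.132, 0.193, 18.2 and 0, and H2-Q8 at 0.209, 0.358, 10.3 and 0.102. H2-Q9 was listed at 0.13 FPKM in WT, 1.81 in G3 and practically 0 in the others. These 4 copies together gave 0.671, 0.82, 53.2 and 0.48 FPKM, so that Qa-2 type transcripts were near the detection limit outside G3. At these depths 3 fragments on a transcript of 1500 nt correspond to 0.116 to 0.12 FPKM.

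H2-T23 encodes Qa-1, which presents leader peptides of other class I chains to NKG2 receptors on natural killer cells. It stood at 9.02, 11.0, 70.0 and 11.9 FPKM in WT, KO, G3 and G3KO as labelled. H2-T22, whose product is bound by some gamma delta T cells, stood at 11.2, 12.6, 76.8 and 12.9 FPKM. Its close relatives H2-T9 (4.38, 5.39, 37.8 and 3.85 FPKM) and H2-T10 (0.23, 0.409, 3.98 and 0.262 FPKM) were also highest in G3. For all these T genes G3 was high and the other 3 libraries lay close together, with H2-T22 6.87-fold and H2-T23 7.77-fold higher in G3 than in WT. H2-M3, which presents N-formylated peptides of bacteria and mitochondria, differed less, with 2.26, 2.34, 8.38 and 1.68 FPKM.

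H2-T24, also above 1 FPKM, did not follow this pattern. It stood at 1.89 FPKM in WT, 1.19 in the library labelled KO, 0.999 in G3 and 2.204 in the library labelled G3KO, so G3 was its lowest library. The pseudogene H2-K2 stood at 0.183, 0.134, 1.13 and 0.134 FPKM, short of the size rule. The other 16 non-classical symbols stayed below 1 FPKM in every library, and 6 of them were listed at 0 throughout. The highest of them, H2-Q2, reached 0.453 FPKM in G3. Over all 28 non-classical symbols the median difference between G3 and WT was 0.07, beside 0 over all symbols compared, and most of these genes were hardly detectable at this depth. The classical pair had a median of 3.49.

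**Figure D3:**
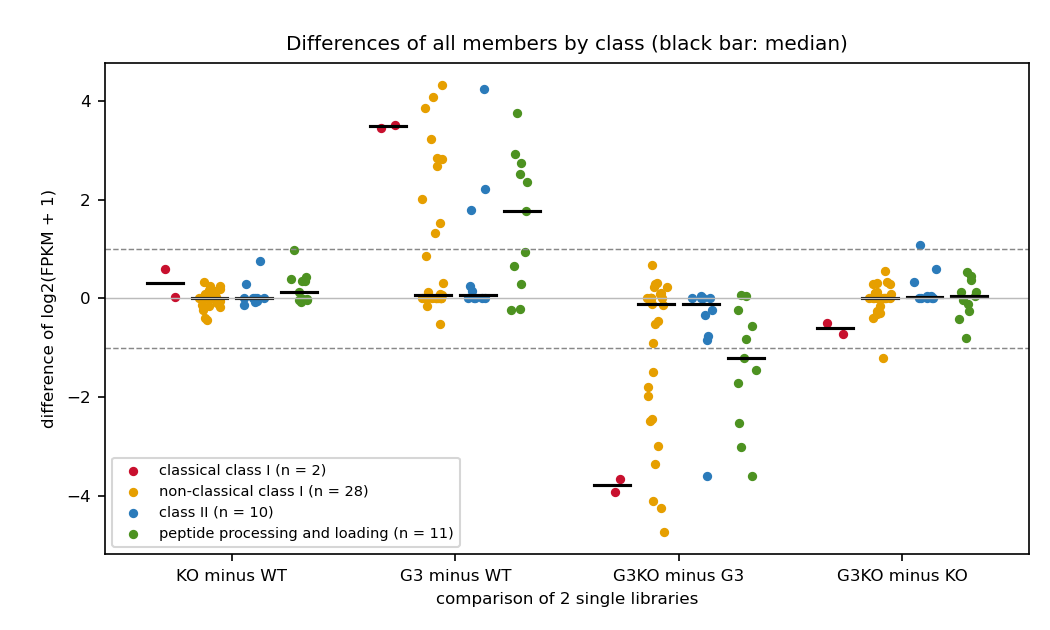
Differences of log2(FPKM + 1) for the members of 4 classes in each of 4 comparisons of single libraries, with 1 point per gene, a black bar at the class median and dashed lines at the size rule. Points reach 4.32 for G3 minus WT and -4.74 for G3KO minus G3, and lie mostly between the dashed lines for the comparisons of KO with WT and of G3KO with KO.

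Beta-2-microglobulin, B2m, the light chain shared by class I molecules, was the most abundant member. It stood at 298 FPKM in WT, 381 in the library labelled KO, 2267 in G3 and 394 in the library labelled G3KO. The gene ranked at position 249 of all symbols in WT and at position 9 in G3. It was 7.60-fold higher in G3 than in WT, a smaller proportion than that of H2-K1, H2-D1 or the class I sum. The ratio of B2m to the sum of all class I symbols was therefore lower in G3, at 1.84, than in WT (2.63), the library labelled KO (2.71) and the library labelled G3KO (3.89).

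Transporter and loading genes were also highest in G3, at smaller folds than the classical heavy chains. Tap1, a subunit of the peptide transporter, stood at 4.55, 6.11, 30.7 and 8.70 FPKM, and its partner Tap2 at 5.96, 8.08, 34.8 and 12.1 FPKM. The pair was 6.76-fold and 5.84-fold higher in G3 than in WT. Tapbp, tapasin, which bridges the transporter and the heavy chain, stood at 21.3, 29.0, 74.8 and 31.9 FPKM. Unlike H2-K1 and H2-D1, Tap1, Tap2 and Tapbp were lowest in WT, with the library labelled G3KO second to G3. The peptide editor Tapbpl (4.82, 4.74, 6.13 and 6.43 FPKM) and the trimming aminopeptidase Erap1 (5.11, 4.96, 4.26 and 3.47 FPKM) stayed within the size rule in all 4 comparisons.

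Tap1 and Psmb9 are transcribed in opposite directions from starts whose promoter windows overlap, so the bases between their starts are shown as a whole. They lie at chr17:34187331-34187555 in GRCm38.p6 and are read on the strand of Tap1. Capitals mark the Y box, here as its reverse complement next to the start of Psmb9, and the CRE type motif. The interferon response element core and the NF-kB type motif had no match in this stretch.
Tap1 and Psmb9: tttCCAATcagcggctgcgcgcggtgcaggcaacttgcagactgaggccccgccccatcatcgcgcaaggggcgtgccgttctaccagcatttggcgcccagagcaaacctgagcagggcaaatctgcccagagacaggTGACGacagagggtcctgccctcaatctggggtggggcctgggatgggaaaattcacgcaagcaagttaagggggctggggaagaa

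Psmb9 encodes a catalytic subunit of the immunoproteasome, and it stood at 0.51, 0.499, 9.18 and 0.25 FPKM. Psmb9 was 18.0-fold higher in G3 than in WT, a fold that rests on 0.51 FPKM in WT, compared with 6.76-fold for Tap1. On the log2(FPKM + 1) scale the differences were alike, 2.75 for Psmb9 and 2.52 for Tap1. Use of the shared stretch was not measured. Psmb8, the next catalytic subunit, stood at 2.51 FPKM in WT, 5.94 in the library labelled KO, 46.8 in G3 and 2.95 in the library labelled G3KO. The library labelled KO was second to G3 here, and its difference of 0.98 from WT was the largest of any member in that comparison. Psmb10, the third inducible catalytic subunit, did not follow, with 13.3, 12.5, 11.1 and 11.5 FPKM. The proteasome activator subunits Psme1 (40.9, 39.9, 64.5 and 43.6 FPKM) and Psme2 (60.4, 66.3, 116 and 64.8 FPKM) were highest in G3 but did not pass the size rule. For Psme2, 59.3% of 50-base words are shared with other genes, so its value is uncertain.

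Each inducible subunit replaces a constitutive partner, and their ratio was compared as FPKM over FPKM. Psmb8 amounted to 1.46% of its partner Psmb5 in WT, 3.16% in the library labelled KO, 27.0% in G3 and 1.68% in the library labelled G3KO. Psmb9 amounted to 0.368%, 0.377%, 6.28% and 0.181% of Psmb6. Psmb10 lay between 7.82% and 8.51% of Psmb7 in all 4 libraries. The 3 inducible subunits thus differed among themselves, and even in G3 the constitutive transcripts remained the more abundant ones. None of the 6 constitutive proteasome genes listed for comparison was higher or lower by the size rule in G3 against WT. Those with the largest differences were Psme4 (23.1 and 17.6 FPKM in WT and G3), Psme3 (49.3 and 37.8), Psmb7 (156 and 131) and Pomp (146 and 133).

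**Figure D4:**
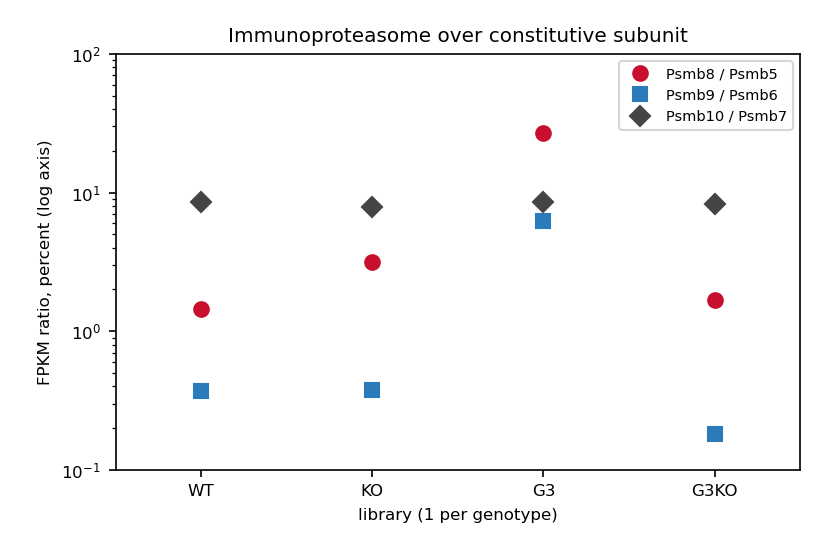
FPKM of each inducible proteasome subunit as a percentage of its constitutive partner, on a log axis, with 1 point per library. Psmb8 over Psmb5 reaches 27.0% and Psmb9 over Psmb6 reaches 6.28% in G3, while Psmb10 over Psmb7 lies between 7.82% and 8.51% throughout.

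Class II genes were largely silent, with a single chain as the main exception. H2-Ab1, the beta chain of the I-A molecule, stood at 0.104 FPKM in WT, 0.354 in the library labelled KO, 19.9 in G3 and 0.709 in the library labelled G3KO. G3 alone was high, by 28.1-fold over the library labelled G3KO, and its value stands for at most about 469 fragments against 2.41 in WT. Its partner, the alpha chain H2-Aa, was listed at 0.0592, 0, 0.176 and 0 FPKM, at most about 3.85 fragments in G3. The invariant chain Cd74, which escorts class II molecules to endosomes, stood at 0.302, 0.196, 0.249 and 0.0984 FPKM. Ciita, the activator of class II genes, stood at 0.0105, 0.0717, 0.0415 and 0.0615 FPKM. In G3 the beta chain was thus measured without comparable levels of its alpha chain, invariant chain or activator. H2-Ab1 shared no 50-base word with another gene in GENCODE M21. The summed leukocyte markers were about as low in G3 (6.07 FPKM) as in WT (5.80), and Ptprc stood at 0.01 FPKM in G3. Csf1r of the same list stood at 0.363 FPKM in WT and 0.828 in G3. The 5 dendritic cell markers summed to 0.688 FPKM in WT and 1.36 in G3, where Zbtb46 stood at 1.20. No marker of either list passed the size rule between G3 and WT. Of 5 B cell markers, 4 were listed at 0 in every library. The part of such cells in the H2-Ab1 value was not tested.

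The peptide exchange factor H2-DM showed another order. H2-DMa stood at 2.49, 2.34, 11.1 and 6.08 FPKM, and H2-DMb1 at 0.379, 1.34, 5.40 and 2.55 FPKM. Both were high in G3 and intermediate in the library labelled G3KO. H2-DMa was the only member higher in the library labelled G3KO than in that labelled KO by the size rule, with a difference of 1.08. Unlike the H2-DM genes, macrophage genes were highest in the library labelled G3KO. Lyz2 stood at 2.101, 2.41, 2.44 and 11.5 FPKM and Tyrobp at 0.283, 0.276, 0 and 1.52 FPKM. The part of macrophages in the H2-DM values was not tested. H2-DMb1 shares 27.2% of its 50-base words with H2-DMb2, which was listed at 0 throughout. The other 7 class II symbols were below 1 FPKM in every library, and 4 were listed at 0 in all. H2-Eb1 stood at 0.14, 0.0342, 0.346 and 0.0684 FPKM.

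Nlrc5, the activator of class I genes, stood at 0.296 FPKM in WT, 0.416 in the library labelled KO, 5.53 in G3 and 0.275 in the library labelled G3KO. It had the same order as H2-K1 and H2-D1 in that G3 alone was high. Of 15 other transcription factors linked to MHC genes, 3 were higher and 1 lower in G3 than in WT. Beside these counts, 5.70% of all symbols were higher and 3.32% lower. Among the higher genes, Stat2 stood at 7.72, 10.3, 51.4 and 16.5 FPKM and Irf9 at 11.0, 12.01, 25.8 and 14.7 FPKM. Both encode factors of the response to type I interferon. Nfyc, a subunit of the Y box binding factor NF-Y, was the lower gene at 19.9, 18.1, 7.89 and 14.1 FPKM. Irf1, an interferon-induced activator of class I genes chosen after its values were seen, differed little at 9.66, 8.88, 9.70 and 7.04 FPKM.

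Of the interferon genes themselves only Ifng and Ifnb1 were looked up, and these were hardly detected. Ifng was listed at 0 in all libraries, and Ifnb1 at 0.0895 FPKM in G3 and 0 elsewhere. Of 9 listed interferon ligand, receptor and kinase genes 1 was higher in G3 than in WT, beside 5.70% of all symbols. It was the receptor subunit Ifnar2, at 26.8, 27.4, 68.0 and 31.6 FPKM. Ifngr2 stood at 31.8 and 58.4 FPKM in WT and G3, Ifngr1 at 17.5 and 27.5 FPKM, and the kinase Jak2 at 14.8 and 9.81 FPKM.

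Class I-like molecules encoded outside the MHC were partly higher as well. In G3 against WT, 6 of 13 were higher and 1 lower, beside 5.70% and 3.32% of all symbols. Procr, a protein C receptor of class I fold, stood at 4.10, 6.51, 53.9 and 16.5 FPKM. Hfe, which regulates iron uptake, stood at 1.92, 2.08, 11.2 and 2.21 FPKM. Mr1, which presents vitamin B metabolites, stood at 3.33, 3.67, 15.7 and 6.76 FPKM. Raet1e, a ligand of the NKG2D receptor with close copies and thus an uncertain value, stood at 1.23, 2.35, 11.4 and 9.99 FPKM. Hfe resembled the classical class I genes in that the library labelled G3KO lay near WT, while Raet1e was about as high in the library labelled G3KO as in G3. Of 5 chaperones of class I folding, none passed the size rule. Hspa5 (521 and 418 FPKM in WT and G3), Canx (232 and 190.4), Calr (820.2 and 729) and Pdia3 (414 and 431) had the largest differences among them.

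The class II pathway list held 6 genes, endosomal proteases and a thiol reductase. Of these, 2 were higher in G3 than in WT, beside 5.70% of all symbols. Ctsl stood at 229, 223, 529.7 and 254 FPKM and Ctsd at 485, 505, 1030.2 and 658 FPKM. Ctsb (127 and 253 FPKM in WT and G3) and Lgmn (36.2 and 69.9) fell just short of the size rule. Of 6 costimulatory and inhibitory ligands 2 were higher in G3 than in WT, beside 5.70% of all symbols. Cd80 stood at 2.81, 4.52, 7.66 and 5.39 FPKM, and Cd274, encoding PD-L1, at 0.388, 0.51, 1.96 and 0.89. Icosl stood at 0.221, 0.236, 0.817 and 0.256 FPKM. Cd40 had its lowest value in the library labelled G3KO, with 11.1, 5.43, 8.34 and 0.648 FPKM.

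Most members lie in an interval of chromosome 17, interspersed with other genes, so their neighbours without an MHC role were compared. Between Tapbp and H2-M2, in the gene order of GENCODE M21, 44 members and 121 other protein-coding genes were compared. Another 5 genes with symbols beginning with Gm were set apart by name alone as possibly MHC-like and were in neither group. Gm7030 among them passed the size rule, with 0, 0, 2.70 and 0.144 FPKM. By the size rule 17 of the 44 members (38.6%) were higher in G3 than in WT, and 7 of the 121 neighbours (5.79%), a share close to the 5.70% of all symbols. The neighbours that were higher included the complement genes Cfb (0.605, 0.335, 9.77 and 0.888 FPKM) and C2 (1.09, 0.8, 4.53 and 1.70 FPKM) and the stress gene Ier3 (54.9, 53.1, 252 and 43.4 FPKM). They were chosen after their values were seen. The prefoldin gene H2-Ke2 (86.9, 74.7, 71.0 and 60.6 FPKM) and the dehydrogenase gene H2-Ke6 (6.74, 7.97, 10.1 and 10.4 FPKM) stayed within the size rule like most neighbours. B2m, Nlrc5 and the activator subunits lie on other chromosomes.

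**Figure D5:**
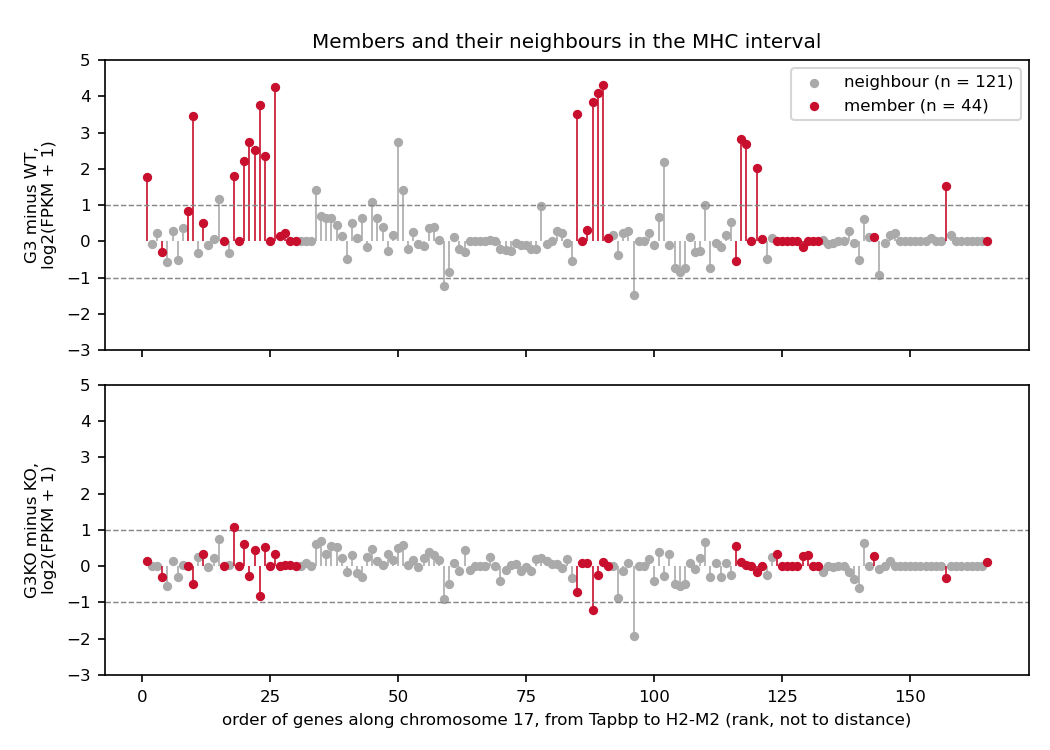
Differences of log2(FPKM + 1) for 44 members (red) and 121 neighbouring protein-coding genes (grey), by rank along chromosome 17 and not to distance, for G3 minus WT above and G3KO minus KO below, with dashed lines at the size rule. In the upper panel 17 red and 7 grey stems pass the upper dashed line, and in the lower panel H2-DMa alone does.

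For KO against WT and G3KO against KO, as labelled, the members' shares past the size rule were close to those of all symbols. The 25 members below 1 FPKM in all libraries could not pass it. In the library labelled KO none of 56 members was higher or lower than in WT by the size rule, beside 0.187% and 0.138% of all symbols. Differences ran from -0.45 to 0.98, with H2-D1 at 0.58 and H2-K1 at 0.02. Between the library labelled G3KO and that labelled KO, which differ by Terc genotype and in Y-linked transcripts, 1 member was higher and 1 lower, beside 1.33% and 1.29% of all symbols. The higher was H2-DMa, and the lower was H2-Q4, with a difference of -1.22. H2-K1 (-0.49) and H2-D1 (-0.72) were both somewhat lower in the library labelled G3KO than in that labelled KO. When the library labelled G3KO was set against WT, H2-DMb1 (1.36) and H2-DMa (1.02) passed the size rule upwards. The share of all symbols was not computed for that comparison. Among the 20 members that stood apart in G3, the spread of log2(FPKM + 1) over the other 3 libraries was 0.15 to 1.22, and under 1 for 19 of them. Where a member was below 1 FPKM in all 3, a spread under 1 was fixed by the scale. This holds for H2-Ab1 (0.104 to 0.709 FPKM) and Nlrc5 (0.275 to 0.416), among others, so for them it does not show similar levels.

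The difference that went with the Gadd45 label was itself compared between the Terc-proficient and the G3 pair of libraries. The double difference, G3KO minus G3 less KO minus WT, was -3.95 for H2-K1, -4.24 for H2-D1, -5.07 for H2-Q4, -4.58 for Psmb8 and -2.88 for B2m. It lay between -5.07 and -1.32 for the 20 members that stood apart in G3. These members were picked for high G3 values, which enter the double difference with a minus sign. Negative values largely follow from that choice, so the contrast with other members is not a separate result. For the other 11 members at 1 FPKM or more the double difference lay between -1.61 (H2-DMb1) and 1.08 (H2-T24). Every double difference contains all 4 single libraries, and its error could not be measured.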

How the data were processed

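The authors deposited a table of FPKM per library, the unit being given in the names of the deposited tables and not in their headers. The submitters' processing notes list TopHat2 2.1.1, Cufflinks 2.2.1 and mm9, without roles. Annotation, strand setting and filtering: not given in the sources used here. Poly(A) RNA was selected on oligo(dT) beads, per the labels' protocols. FPKM divides fragments among similar copies and scales by each library's total.

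From these values 737 symbols of short RNA were left out and log2(FPKM + 1) differences taken (pandas 2.3.3, numpy 2.4.6). Members with 1 FPKM or more in any library are named, and up to 4 genes of each further list with the largest difference between G3 and WT. One gene that this rule names is not reported here. Folds are given where both values reach 0.5 FPKM. Members and lists were chosen with earlier results of these data known. Depth was estimated from values up to 0.05 FPKM on single-transcript genes of 1500 to 8000 nt, with fragments of 200 nt, taking the total that put most values within 0.1 of a whole fragment (74.3% to 77.2%). Fragment numbers of single genes take the full transcript length, not the length less 200 nt used for depth, and so run somewhat high. They are approximate and cover counting only. The difference and size rule were checked on simulated libraries. Promoter sequences are from RefSeq (GRCm38.p6) and transcripts from GENCODE M21, and no coordinates were converted to mm9. Pseudocount, filter and scaling alternatives were run.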

Additional observations from a re-analysis of the deposited data

Results flagged for a closer look

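The Gadd45 label went with differences of opposite sign in the Terc-proficient and the G3 libraries for the median of 2 classes, and the difference between them was not tested, since each rests on single libraries. For classical class I the median was 0.30 for KO minus WT and -3.80 for G3KO minus G3, a median double difference of -4.10. For peptide processing and loading the medians were 0.13 and -1.21, with a median double difference of -1.64. Both positive medians lie well below the size rule of 1. In KO minus WT, H2-K1 differed by 0.02 and H2-D1 by 0.58. Of the 11 processing and loading genes, 6 lay above 0 and 5 below. The library labelled KO also differed from WT in Y-linked transcripts and Xist, so sex and the Gadd45 label cannot be told apart there.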

How the results depend on the processing

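With a pseudocount of 0.1 FPKM, 3 members were higher and 4 lower in KO than in WT (0 and 0 in the report), 4 were higher in G3KO than in G3 (0), and 5 were higher and 3 lower in G3KO than in KO (1 and 1), a setting that lets genes with very few fragments pass. Median-of-ratios scaling put 1 member, Psmb8 (1.01), higher in KO than in WT. Keeping only symbols with a mean of 1 FPKM or more, a filter that favours genes high in G3, gave medians of 2.84 for non-classical class I and 2.21 for class II in G3 minus WT and of -2.74 for non-classical class I in G3KO minus G3. No difference past the size rule changed sign under the alternatives run. Differences near 0 did for Tapbpl in KO minus WT (-0.021 to 0.0058, median-of-ratios), Psme2 in G3KO minus KO (-0.032 to 0.0070, quantile) and H2-K2 in G3KO minus KO (0.00024 to -0.00051 and -0.050 under the respective scalings). The counts of 22 higher in G3 than in WT and 20 lower in G3KO than in G3 were 24 and 27 with the smaller pseudocount, 21 and 19 with the filter, and 22 and 20 under either scaling. Of the single genes' differences, 114 of 124 kept their side of the size rule with the smaller pseudocount, 123 with median-of-ratios scaling and 124 with quantile normalization. Scaling moved the median of symbols with a mean of 1 FPKM or more by at most 0.09. No paired analysis was possible because each genotype had 1 library, and no library could be left out. Depth limits the symbols below 1 FPKM, whose differences rest on a few fragments.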
